A study of Mus musculus with 12 samples.

Results

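The 9 genes described here are ones by which microglia, the resident macrophages of the brain, are commonly recognised: Cx3cr1, P2ry12, Csf1r, Trem2, C1qa, C1qb, C1qc, Tmem119 and Aif1. They were taken as a list of mouse symbols, and each of the 9 was found once among the 19775 genes of the deposited table. All 9 had a mean of at least 10 normalized counts and were tested in each comparison. The RNA came from whole brains of 12 male C57BL/6N mice at about postnatal day 120, with 4 wild-type (WT), 4 Slc6a20a heterozygous (HT) and 4 Slc6a20a homozygous mutant (HM) mice. The mutant allele lacks exon 3 of Slc6a20a, which encodes a proline and glycine transporter, and the mice came from crosses of heterozygous parents. The labels name no other allele and no treatment. None of the 9 genes had an adjusted p under 0.05 in any comparison of genotypes (limma, adjusted over all genes tested). Tmem119 alone had every HM mouse below every WT and HT mouse, with means of 592 normalized counts in HM, 672 in WT and 659 in HT mice. Over all genes tested, 4.22% did not overlap in HM against WT and 2.38% in HM against HT mice. Cx3cr1, P2ry12 and Csf1r had log2 fold changes of -0.19 to -0.16 in HM against HT mice. Of the 9 genes 7 were lower in that comparison, and Trem2 (0.13) and C1qb (0.06) were higher. With a block for the start of the animal number, which leaves HM replicate 4 and HT replicates 1 and 2, these receptors were at -0.15 to -0.04. The C1q chains were at -0.15 to -0.04 in either mutant genotype against WT mice. With that block, C1qa was at 0.03, C1qb at 0.06 and C1qc at -0.09 in HM against WT mice.

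Microglia survey brain tissue, take up debris and respond to injury. Their survival depends on CSF1R, the receptor for CSF1 and IL-34. CX3CR1 binds fractalkine released by neurons, and P2RY12 senses nucleotides and guides their processes. TREM2 is a lipid-sensing receptor that signals through TYROBP. C1q, built of A, B and C chains, starts the classical complement cascade and has microglia as its main source in the brain. TMEM119 is a membrane protein widely used to tell microglia from other macrophages, and AIF1, known as IBA1, is an actin-binding protein used to stain them. Csf1r, Trem2, Aif1 and the C1q genes are also expressed by macrophages at the brain's borders.

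Slc6a20a had 679 ± 70.1 normalized counts in the WT mice, 345 ± 29.1 in the HT mice and 64.5 ± 9.95 in HM mice (SD, n = 4 mice each), in the order of the labelled genotypes. Normalized counts over all genes summed to 33284951 to 33748623 per mouse, and read totals were not recovered. The 12 libraries were each a separate mouse. In these bulk libraries, fewer microglia and less RNA per microglial cell cannot be told apart. Of markers of monocytes and neutrophils, 5 of 8 were not listed in the table and the remainder summed to 10.2 to 48.4 normalized counts per mouse. Of 7 lymphocyte markers 6 were not listed, and the one that was, Cd79a, had 7.90 to 16.1 normalized counts. The 8 markers of border-associated macrophages were all listed and summed to 962 to 1326 in WT, 1054 to 1224 in HT and 981 to 1222 in HM mice. Every one of 21 other genes of homeostatic microglia, Siglech among them, was present in the table.

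In GENCODE M21 on GRCm38, the genes C1qb (chr4:136880129-136886187), C1qc (chr4:136889804-136893065) and C1qa (chr4:136895917-136898803) lie side by side on the minus strand of chromosome 4. Trem2 (chr17:48346401-48354147, plus strand) and Aif1 (chr17:35170991-35176068, minus strand) share chromosome 17. Cx3cr1 (chr9:119901616-120069879), P2ry12 (chr3:59216272-59262871) and Tmem119 (chr5:113793729-113800516) lie on minus strands. The library kit does not mark strand, so reads from overlapping exons cannot be told apart. Cx3cr1 shares 78 of 4505 exon bases with Gm33858, and P2ry12 shares 9 of 2546 with Med12l.

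RefSeq promoters, on build GRCm38.p6, were at hand for 6 of the 9 genes, and the 250 bases before the start were searched on both strands for the letters GAGGAA. These letters are the core that PU.1, the transcription factor of myeloid cells, binds. They occurred in 4 of the 6 windows, those of C1qb, C1qc, Aif1 and Trem2, and in 23.3% of all 32851 promoter windows of this length. The windows of Cx3cr1, C1qc and Aif1 start from a RefSeq start that lies inside the GENCODE gene, and the match of Aif1 lies within that gene. A second motif, an interferon-response form, occurred in 1 of the 6, Aif1, apart from the first, and in 2.98% of all windows. Such matches describe letters and are not binding sites. C1qb and Trem2 are shown as a pair picked for its correlation from mouse to mouse (r = 0.738, permutation, BH-adjusted p over 36 pairs 0.115). P2ry12 is shown as a receptor gene whose window has no such letters. Aif1, whose window has them, had r = -0.757 with C1qb, and C1qc, whose window also has them, had r = 0.091 with Trem2. Any link between the letters and the correlations was not tested. Capitals mark GAGGAA or, on the other strand, TTCCTC, and each sequence reads 5′ to 3′ toward the gene.
C1qb, chr4:136886201-136886450, minus strand: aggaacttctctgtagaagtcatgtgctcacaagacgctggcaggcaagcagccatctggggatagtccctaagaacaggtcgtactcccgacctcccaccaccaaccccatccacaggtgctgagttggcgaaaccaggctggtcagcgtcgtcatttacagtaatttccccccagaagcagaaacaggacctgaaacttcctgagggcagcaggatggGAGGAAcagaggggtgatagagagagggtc
Trem2, chr17:48346151-48346400, plus strand: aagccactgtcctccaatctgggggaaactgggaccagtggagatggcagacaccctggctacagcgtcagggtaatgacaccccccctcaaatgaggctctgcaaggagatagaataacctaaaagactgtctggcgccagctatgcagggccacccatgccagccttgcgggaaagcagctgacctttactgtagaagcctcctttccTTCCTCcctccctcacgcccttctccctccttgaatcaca
P2ry12, chr3:59262986-59263235, minus strand: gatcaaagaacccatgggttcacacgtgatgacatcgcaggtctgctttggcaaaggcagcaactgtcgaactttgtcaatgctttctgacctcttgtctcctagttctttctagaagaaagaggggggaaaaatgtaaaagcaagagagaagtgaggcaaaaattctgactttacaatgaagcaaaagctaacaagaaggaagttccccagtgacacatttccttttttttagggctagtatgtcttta
In C1qb the motif began 30 bases before the start on the gene's own strand, and in Trem2 it lay on the other strand, 40 bases before the start.

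On a scale of normalized counts per kilobase of transcript, the C1q chains were the most abundant of the 9. C1qb had 1064 ± 84.4, C1qa 876 ± 75.7 and C1qc 801 ± 53.2 (SD, n = 12 mice). Csf1r followed with 511 ± 60.2, then P2ry12 with 302 ± 35.0, Trem2 with 288 ± 35.0, Tmem119 with 286 ± 20.3 and Cx3cr1 with 218 ± 23.3. Aif1 was lowest at 106 ± 13.4. Over the 12 mice, the ranges of neighbours in this order overlapped except between C1qc and Csf1r, between Csf1r and P2ry12, and between Cx3cr1 and Aif1. Per length, C1qa stood at 0.743 to 0.882 of C1qb and C1qc at 0.662 to 0.854 of C1qb across the mice. The levels rest on one chosen transcript per gene, which sets the length.

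Mice of one genotype differed by different amounts from gene to gene. The coefficient of variation within genotypes was 4.70% for Tmem119 and 5.15% for C1qc, near the 3.95% and 3.22% that counting reads alone would give. It was 10.2% for Cx3cr1, 11.6% for P2ry12 and 11.3% for Csf1r, against a counting share of 3.20%, 3.76% and 2.04%. For Aif1, the least abundant gene, 13.1% stood beside a counting share of 10.4%. The counting share takes normalized counts as reads and covers counting error only.

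**Figure D1:**
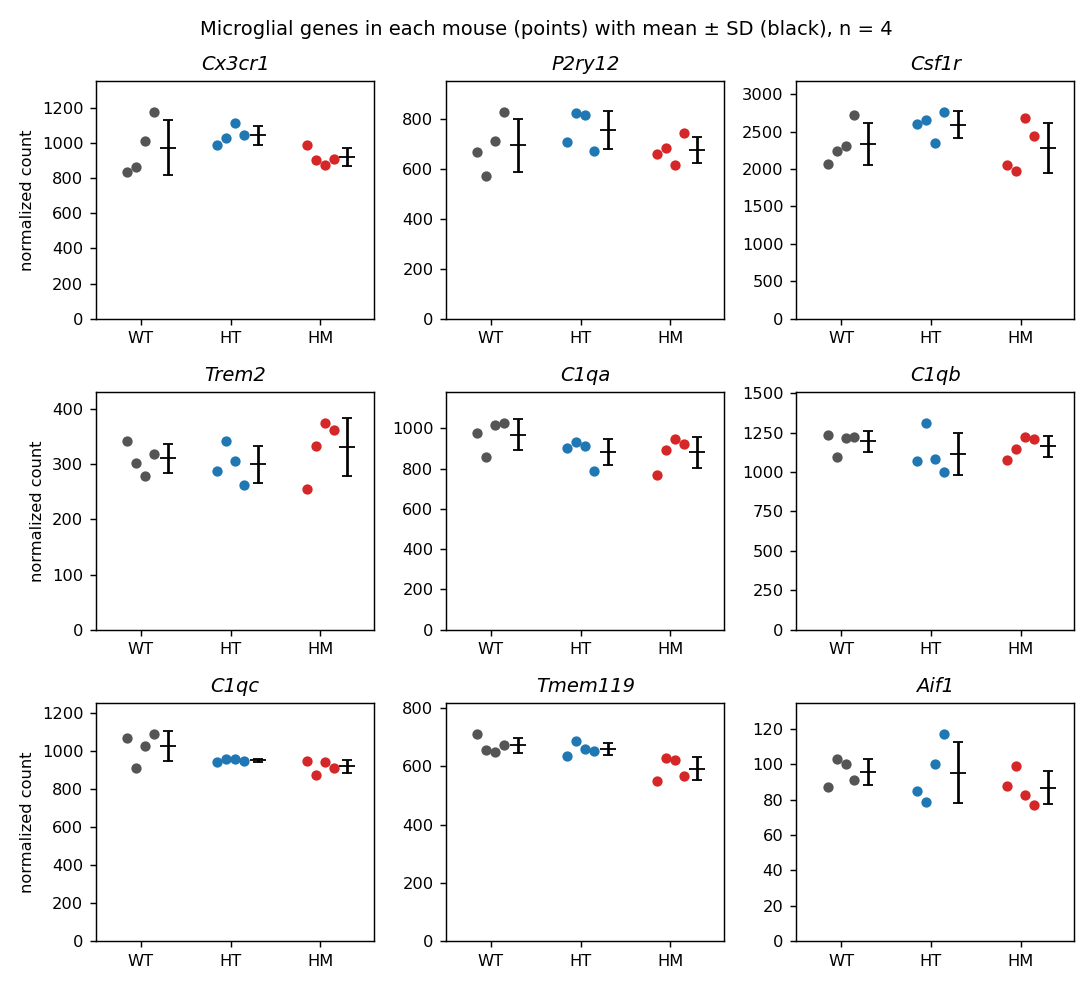
Normalized counts (y axes, from 0) of the 9 microglial genes in each of the 12 mice by genotype (x axis), with the mean ± SD of 4 mice in black. The HM mice lie below all WT and HT mice for Tmem119 (at most 629.4 against at least 636.1), and the genotypes overlap for the other 8 genes.

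Of the receptors, Cx3cr1 had 834.1, 865.9, 1010.8 and 1176.6 normalized counts in the WT mice, 986.8, 1026.6, 1114.4 and 1048.3 in HT mice, and 991.2, 905.8, 877.0 and 906.8 in HM mice. WT mice held both the lowest and the highest of the 12 values, and all HT mice but replicate 1 lay above all HM mice. Relative to HT mice, HM mice were at -0.18 on the log2 scale (SE 0.06, 95% confidence interval -0.30 to -0.06, unadjusted p = 0.00655), which did not pass the Benjamini-Hochberg (BH) adjustment over 17986 genes (limma, adjusted p = 0.9998). Against WT it was 0.12 (SE 0.09) in HT and -0.07 (SE 0.09) in HM mice, both smaller than the spread between WT mice, and the HT value ran from 0.05 without WT replicate 1 to 0.21 without WT replicate 4.

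P2ry12 showed 665.6, 569.7, 710.1 and 826.8 normalized counts in the WT mice, 707.2, 822.6, 816.1 and 670.9 in the HT mice and 659.7, 683.0, 615.1 and 742.8 in HM mice. The genotypes overlapped, with WT holding both the lowest and the highest mouse. HM mice differed from HT mice by a log2 fold change of -0.16 (SE 0.08, limma, unadjusted p = 0.0718, adjusted p = 0.9998), HT from WT mice by 0.13 (SE 0.10) and HM from WT mice by -0.03 (SE 0.10). The HT against WT value was 0.04 without WT replicate 2 and 0.22 without WT replicate 4.

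Csf1r lies on the plus strand (chr18:61100598-61132149) and shares 873 of its 5774 exon bases with Hmgxb3. The most heavily counted of the 9, it had 2062.5, 2235.4, 2304.4 and 2720.6 normalized counts in the WT mice, 2606.8, 2656.5, 2345.5 and 2761.5 in the HT mice and 2050.6, 1972.5, 2684.9 and 2437.5 in HM mice. All 4 HT mice lay above the WT mean, while 2 HM mice lay above and 2 below it. The HT against WT difference was 0.16 on the log2 scale (SE 0.08, limma, unadjusted p = 0.0571, adjusted p = 0.775). HM against HT it was -0.19 (SE 0.09, limma, unadjusted p = 0.0486, adjusted p = 0.9998). HM against WT it was -0.03 (SE 0.10).

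The values of Trem2 were 341.6, 303.0, 278.4 and 318.7 normalized counts in the WT mice, 287.7, 341.6, 306.7 and 262.8 in the HT mice and 255.6, 333.3, 374.4 and 361.1 in HM mice. HM mice held both the lowest and the highest value. The log2 fold change was -0.05 (SE 0.10) in HT against WT, 0.08 (SE 0.12) in HM against WT and 0.13 (SE 0.12, limma, adjusted p = 0.9998) in HM against HT mice, none beyond the spread between mice.

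The C1q chains were lower on average in both mutant genotypes than in WT, by amounts that did not pass the test. With a block for the start of the animal number, C1qa was at 0.027, C1qb at 0.061 and C1qc at -0.092 in HM against WT mice. C1qa had 975.0, 859.0, 1017.0 and 1025.4 normalized counts in the WT mice, 900.1, 930.6, 913.1 and 788.7 in the HT mice and 770.0, 890.8, 944.7 and 920.2 in HM mice. All 8 mutant mice lay under the WT mean of 969, but WT replicate 2 lay among them. The log2 fold change was -0.13 in HT (SE 0.07, limma, unadjusted p = 0.0868, adjusted p = 0.799). For HM mice it was -0.14 (SE 0.08, limma, unadjusted p = 0.0969, adjusted p = 0.748).

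C1qb had 1236.8, 1096.9, 1218.9 and 1225.0 normalized counts in the WT mice, 1072.9, 1310.0, 1082.6 and 1000.4 in the HT mice and 1075.6, 1143.2, 1221.7 and 1209.0 in HM mice. HT replicate 2 was the highest of the 12 mice and HT replicate 4 the lowest. Its log2 fold changes were -0.10 (SE 0.08) in HT and -0.04 (SE 0.06) in HM mice against WT.

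C1qc had 1070.1, 912.0, 1023.6 and 1087.1 normalized counts in the WT mice, 943.3, 958.6, 955.2 and 944.3 in the HT mice and 946.7, 875.4, 942.9 and 910.5 in HM mice. The 4 HT mice differed among themselves by little, with a coefficient of variation of 0.81%, below the counting share, while WT replicate 2 lay below every HT mouse and the other WT mice above them. HM against WT the log2 fold change was -0.15 (SE 0.06, limma, unadjusted p = 0.0322, adjusted p = 0.673), and HT against WT it was -0.10 (SE 0.06, limma, adjusted p = 0.830).

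Tmem119 was the gene of the 9 whose HM mice lay apart from both other genotypes. It had 710.1, 655.8, 649.7 and 671.9 normalized counts in the WT mice, 636.1, 686.9, 659.8 and 651.4 in the HT mice and 551.1, 629.4, 621.3 and 566.2 in HM mice. Every HM mouse lay below every WT and every HT mouse, with means of 592 ± 39.1 in HM, 672 ± 27.1 in WT and 659 ± 21.3 in HT mice (SD, n = 4). The log2 fold change was -0.18 against WT (SE 0.07, limma, unadjusted p = 0.0152, adjusted p = 0.664) and -0.16 against HT mice (SE 0.06, limma, unadjusted p = 0.0264, adjusted p = 0.9998). In two-sided exact permutation tests each had p = 0.0286, the smallest that 4 mice against 4 allow, and 0.386 after BH adjustment over the 27 tests of 9 genes in 3 comparisons. HT and WT mice overlapped (log2 fold change -0.03, SE 0.06). Of all genes, 4.22% did not overlap in HM against WT and 2.38% in HM against HT mice.

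Aif1 had 87.3, 102.9, 100.3 and 91.3 normalized counts in the WT mice, 85.2, 78.5, 100.5 and 117.1 in the HT mice and 87.9, 99.0, 82.8 and 76.99 in HM mice. The genotypes overlapped throughout. Its intervals were the widest, from -0.42 to 0.14 on the log2 scale for HM against WT and from -0.33 to 0.30 for HT against WT mice.

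**Figure D2:**
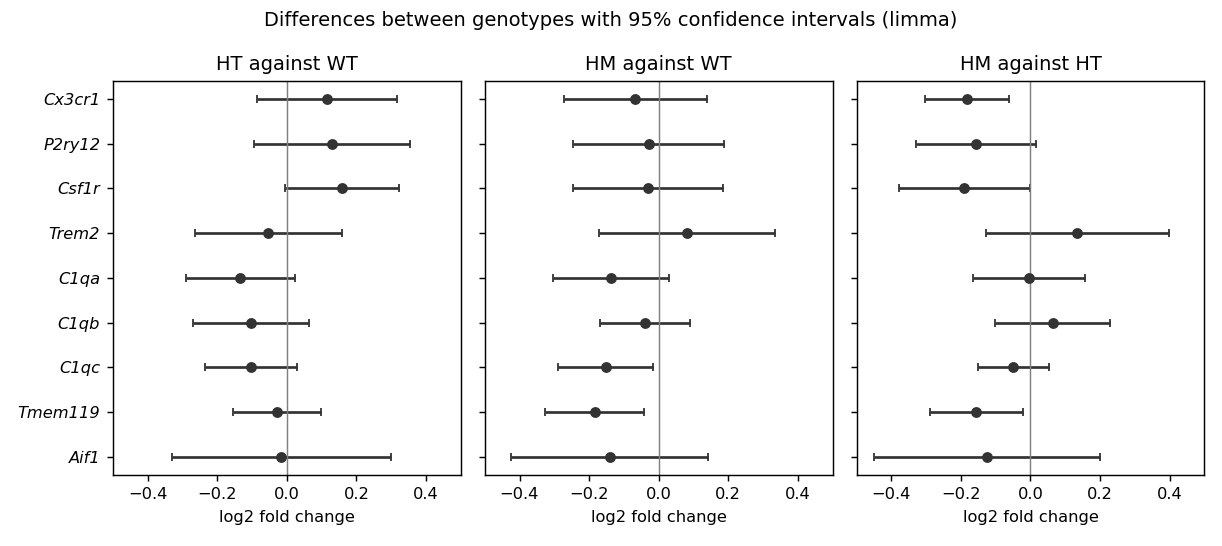
Log2 fold change (x axes) of each microglial gene in the 3 comparisons, with 95% confidence intervals from limma. In HM against HT mice, Cx3cr1, P2ry12, Csf1r and Tmem119 lie between -0.19 and -0.16 and Trem2 at 0.13, and no gene passed the BH adjustment in any panel.

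Of the 9 genes, none had an adjusted p under 0.05 in any comparison (limma, BH). In HT against WT mice, 0 of 9 had an unadjusted p under 0.05, against 6.42% of 18004 genes tested, and 0.00555% of all genes had an adjusted p under 0.05. No gene of the 9 separated HT from WT mice, where 3.73% of all genes did not overlap. In HM against WT mice 2 of 9, Tmem119 and C1qc, had an unadjusted p under 0.05, against 6.99% of all genes, with 0.0111% at an adjusted p under 0.05. In HM against HT mice 3 of 9, Cx3cr1, Tmem119 and Csf1r, did so, against 3.74% of all genes, with 0.00556% at an adjusted p under 0.05. Non-overlap of the genotypes occurred in 1 of 9 genes in HM against WT mice, where 4.22% of all genes did not overlap, and in 1 of 9 in HM against HT mice, where it was 2.38%. The same gene, Tmem119, accounted for both. The WT mice serve 2 comparisons and the HM and HT mice 2 each, so the comparisons are not independent.

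The median log2 fold change of the 9 genes was -0.03 in HT against WT mice, with 3 higher and 6 lower, -0.07 in HM against WT mice, with 1 higher and 8 lower, and -0.13 in HM against HT mice, with 2 higher and 7 lower. Over all genes tested the median was 0.0001, -0.0003 and -0.0009 in the 3 comparisons, and 50.0%, 50.2% and 50.5% of genes were lower. The median size of a log2 fold change, without its sign, was 0.10, 0.08 and 0.13 in the 9 genes and 0.07, 0.07 and 0.05 in all genes. In HM against WT mice, leaving out WT replicate 4, the mouse with the most Cx3cr1 and P2ry12, turned the differences of Cx3cr1, P2ry12 and Csf1r to 0.03, 0.06 and 0.05.

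The animal numbers in the column names start alike in some mice of different genotypes, and what that start stands for is not stated. With a block for it, the HM against WT comparison rests on WT replicates 1 and 2 and HM replicates 3 and 4. The median of the 9 genes was then 0.06, Csf1r was at 0.25 (SE 0.09, limma, unadjusted p = 0.0173, adjusted p = 0.600), and Tmem119 stayed lower at -0.20 (SE 0.09, limma, adjusted p = 0.633). HM against HT, which then rests on HM replicate 4 and HT replicates 1 and 2, gave -0.15 for Cx3cr1 (SE 0.09), -0.04 for P2ry12 (SE 0.13), -0.11 for Csf1r (SE 0.09) and -0.22 for Tmem119 (SE 0.11). With HM replicate 4 as the only HM mouse in it, that blocked comparison cannot give a useful count of genes at a p threshold. Without the block, 3 of the 9 genes had an unadjusted p under 0.05 and none an adjusted one (limma, BH).

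In HT against WT mice, Cx3cr1, P2ry12 and Csf1r had values above 0, and Trem2, the remaining receptor, and the C1q chains below 0, none past the test. The mean log2 level of Cx3cr1, P2ry12, Csf1r and Trem2 less that of the C1q chains, set to a mean of 0 in WT mice, was 0.20 ± 0.04 in HT (0.16 to 0.25) and 0.10 ± 0.04 in HM (0.08 to 0.15) against -0.11 to 0.14 in WT mice (SD, n = 4). The 4 HT mice lay above all WT and all HM mice in this contrast, while WT and HM mice overlapped. The grouping was made with values known and was not tested.

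Fold changes against WT also differed with transcript length. In HT against WT mice, the median log2 fold change of all genes was -0.05 for transcripts below 1500 bases (34.6% of 3026 genes higher), -0.02 from there to 3000 bases and 0.02 above it (59.9% of 8828 higher). In HM against WT mice these medians were -0.05, -0.02 and 0.02, and in HM against HT mice all lay between -0.01 and 0.00. The C1q genes, Trem2 and Aif1 have transcripts below 1500 bases, and Csf1r (4701) and Cx3cr1 (4493) above 3000. After a correction for length, chosen after seeing the data, C1qa was at -0.09 in HT and -0.08 in HM mice and C1qc at -0.06 and -0.11 against WT, where C1qb was at -0.06 and 0.01. Csf1r in HT mice was at 0.14, and the values of Cx3cr1 (-0.18) and Tmem119 (-0.16) in HM against HT mice were as large as before. The part of transcript length in the remaining differences was not tested.

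**Figure D3:**
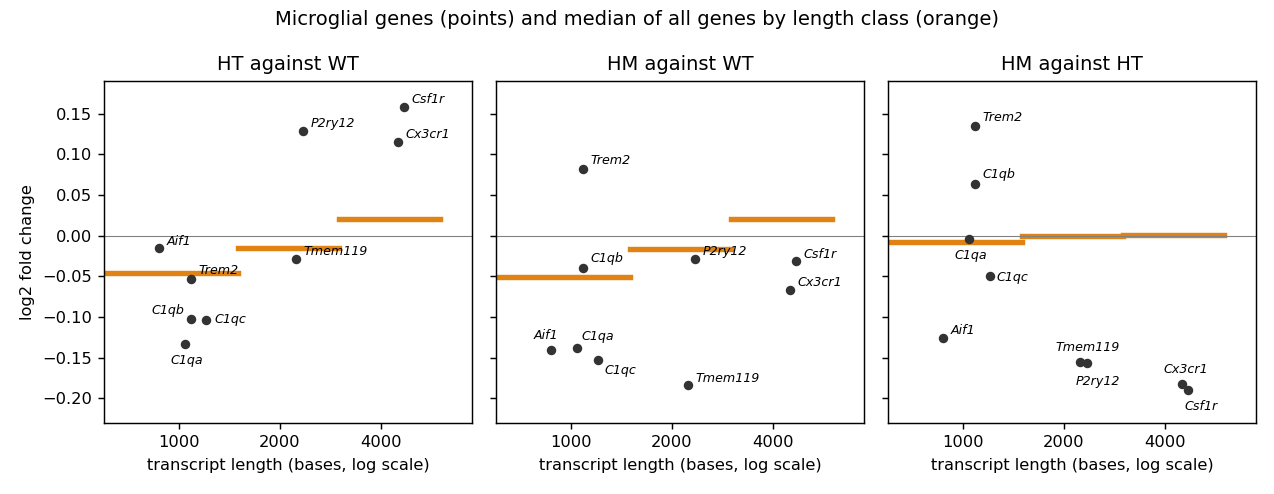
Log2 fold change (y axis) of each microglial gene (points) against transcript length in bases (log scale), with the median of all genes in each of 3 length classes as orange lines. Against WT the medians step from -0.05 to 0.02 with length, while in HM against HT mice they stay near 0 and Cx3cr1, Csf1r, P2ry12 and Tmem119 lie between -0.19 and -0.16.

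From mouse to mouse, the highest correlations among the 9 genes joined C1qa, C1qb and Trem2. Deviations from the genotype mean were compared over the 12 mice, and p came from all 13824 orders of the mice within genotypes. C1qa and C1qb had Pearson's r = 0.776 (permutation p = 0.0012, BH-adjusted p over 36 pairs 0.0417) and Spearman's rho = 0.776 (permutation p = 0.0032, adjusted 0.0573). Without the 2 mice with the most distant C1qa, HM replicate 1 and WT replicate 2, r was 0.707. This was the one pair of 36 past the adjustment by r, and it did not pass by rho.

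C1qb and Trem2 had r = 0.738 (permutation p = 0.0064, BH-adjusted 0.115) and rho = 0.874 (permutation p = 0.0017, adjusted 0.0573), and r = 0.686 without 2 mice. In each pair the 2 mice left out were those most distant in the gene named first. C1qa and Trem2 had r = 0.715 (permutation p = 0.0273, adjusted 0.220), rho = 0.643 (permutation p = 0.0443, adjusted 0.398) and r = 0.604 without 2 mice. C1qb and Aif1 had r = -0.757 (permutation p = 0.0255, adjusted 0.220), rho = -0.706 (permutation p = 0.0228, adjusted 0.273) and r = -0.488 without 2 mice. None of these passed the adjustment. Cx3cr1 and P2ry12 had r = 0.679 (permutation p = 0.0762, adjusted 0.242), rho = 0.566 (permutation p = 0.112, adjusted 0.404) and r = 0.576 without 2 mice. Tmem119 and Trem2 had r = 0.696 (permutation p = 0.0305, adjusted 0.220), rho = 0.594 (permutation p = 0.0795, adjusted 0.404) and r = 0.645 without 2 mice. Neither pair passed the adjustment.

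Over the 36 pairs the median r was 0.28, with 25 above 0 and 6 at an unadjusted p under 0.05. Leaving out the 2 mice most distant in the first gene of each pair gave a median r of 0.06. That choice depends on the order of the genes. For Cx3cr1 and Csf1r, without the 2 mice most distant in Cx3cr1, r went from 0.30 to -0.38. The correlation of each gene with the mean of the other 8 ran from -0.57 for Aif1 to 0.74 for C1qa, with P2ry12 at 0.60 and Cx3cr1 at 0.29. Each start of the animal number holds only 2 to 4 mice, too few for a value within it.

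**Figure D4:**
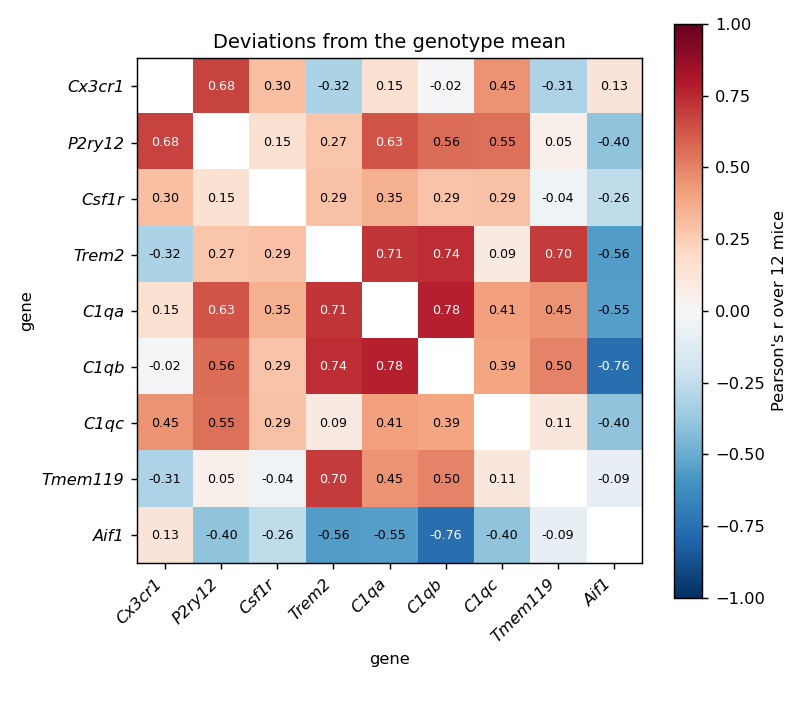
Pearson's r of the deviations from the genotype mean of log2(normalized count + 1) for each pair of the 9 genes (both axes) over 12 mice, in colour from -1 to 1. C1qa, C1qb and Trem2 are joined by r of 0.71 to 0.78, and Aif1 is below 0 with every gene but Cx3cr1.

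Of the 21 other genes of homeostatic microglia, 12 were higher and 9 lower in HT against WT mice, 7 and 14 in HM against WT mice, and 5 and 16 in HM against HT mice, with medians of 0.01, -0.05 and -0.04 and none past the adjustment in any (limma, BH). At an unadjusted p under 0.05 there were 0, 2 and 3, against 6.42%, 6.99% and 3.74% of all genes tested. Of all genes, 50%, 50.2% and 50.5% were lower. P2ry13, a nucleotide receptor related to P2ry12, had 249.1, 252.4, 274.7 and 277.4 normalized counts in HT and 262.6, 183.9, 215.9 and 186.7 in HM mice, and HM replicate 1 alone lay within the HT range. Its log2 fold change was -0.32 (SE 0.11, limma, unadjusted p = 0.0141, adjusted p = 0.9998). Gpr34, a lysophospholipid receptor, was at -0.28 (SE 0.10, limma, unadjusted p = 0.0199, adjusted p = 0.9998) in the same comparison. Sall1, a transcription factor of microglial identity, was higher in HM mice, at 0.21 against WT (SE 0.08, limma, adjusted p = 0.664) and 0.14 against HT mice (SE 0.06). Slc2a5, a fructose transporter, was at 0.34 in HT against WT mice (SE 0.17, limma, adjusted p = 0.779).

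Among the ligands of CSF1R and the myeloid transcription factors, 0 of 9 passed the adjustment in any comparison (limma, BH). An unadjusted p under 0.05 was found for 2, 3 and 0 of them, against 6.42%, 6.99% and 3.74% of all genes. Il34, which in the brain is made mainly by neurons, had 1669.0, 1579.2, 1588.1 and 1666.9 normalized counts in the WT mice. The HT mice had 1430.6, 1413.0, 1481.1 and 1512.9, so that every HT mouse lay below every WT mouse. Il34 was picked by its p, and 3.73% of all genes did not overlap in this comparison. The log2 fold change of Il34 was -0.16 (SE 0.05, limma, unadjusted p = 0.00528, adjusted p = 0.765). HM against WT it was -0.14 (SE 0.06). Csf1, the other ligand, was at 0.05 in HT and 0.09 in HM mice. Mef2c, which neurons express strongly, was at 0.15 in HT and 0.17 in HM mice (limma, adjusted p = 0.770 and 0.643). Ikzf1, a lymphoid and myeloid factor, was at -0.29 in HM against WT mice (SE 0.13). Spi1, which encodes PU.1, was at 0.21 in HM against HT mice (SE 0.14).

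Of the 8 genes of fractalkine and purine signalling none passed the adjustment in any comparison (limma, BH). An unadjusted p under 0.05 was found for 0, 1 and 1 of them, against 6.42%, 6.99% and 3.74% of all genes. P2rx4, an ATP-gated channel, had 478.7 to 501.6 normalized counts over the WT mice and 406.3 to 455.4 over the HM mice without overlap. In this comparison 4.22% of all genes did not overlap. P2rx4 had a log2 fold change of -0.21 (SE 0.07, limma, unadjusted p = 0.00680, adjusted p = 0.644). The fractalkine gene Cx3cl1 had means of 20127, 20694 and 21025 normalized counts in the WT, HT and HM genotypes and was at 0.04 and 0.06 in the mutants against WT.

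In the TREM2 and TYROBP list, 9 of 11 genes were in the table and none passed the adjustment (limma, BH). Those at an unadjusted p under 0.05 were 0, 0 and 1, against 6.42%, 6.99% and 3.74% of all genes. Inpp5d, the lipid phosphatase SHIP1, had 489.1, 449.9, 478.9 and 430.8 normalized counts in HT and 359.8, 352.2, 395.3 and 417.5 in HM mice. Every HM mouse lay below every HT mouse, at a log2 fold change of -0.28 (SE 0.08, limma, unadjusted p = 0.0030, adjusted p = 0.961). In this comparison 2.38% of all genes did not overlap. Tyrobp was at -0.13 in HT and -0.12 in HM mice against WT, and Plcg2, a phospholipase downstream of TREM2, at 0.17 in HT mice (SE 0.12).

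Of 15 other complement genes none passed the adjustment in any comparison (limma, BH). Against 6.42%, 6.99% and 3.74% of all genes, 1, 1 and 0 of them had an unadjusted p under 0.05. That gene was C1s1, a protease that associates with C1q, which had 53.8 ± 12.1 normalized counts in the WT mice, 38.4 ± 6.32 in the HT mice and 33.1 ± 11.8 in HM mice (SD, n = 4), with overlap. Its log2 fold changes were -0.46 (SE 0.21, limma, adjusted p = 0.770) and -0.72 (SE 0.26, limma, adjusted p = 0.664). Cd59a, a membrane inhibitor of complement, was at 0.25 in HM against HT mice (SE 0.14), and Itgam, a subunit of complement receptor 3, lay between -0.06 and 0.01 in the 3 comparisons.

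Of 23 genes that mark disease-associated microglia, 20 were in the table and 18 were tested. None was past the adjustment (limma, BH), with medians of -0.01, -0.0023 and 0.01. Those at an unadjusted p under 0.05 were 1, 0 and 0, against 6.42%, 6.99% and 3.74% of all genes. Lpl, a lipase, was the one, at 0.14 in HT against WT mice (SE 0.06, limma, adjusted p = 0.770), with every HT mouse above every WT mouse. In that comparison 3.73% of all genes did not overlap. Itgax had 3.20 ± 3.55 normalized counts in the WT mice, 5.87 ± 1.13 in the HT mice and 10.7 ± 8.69 in HM mice (SD, n = 4) and was too low to be tested. Apoe, which astrocytes also make, was at -0.05 in HT and -0.03 in HM mice, and Spp1, an extracellular matrix protein, at -0.19 in HM mice (SE 0.11).

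Markers of other cells were read beside these values. Of 8 border-associated macrophage markers, 6 of 8 tested were lower in HT and 5 of 7 in HM against WT mice, with medians of -0.18 and -0.15, and Lyve1 alone had an unadjusted p under 0.05 (HT, -0.48, SE 0.19, limma, adjusted p = 0.770). Mrc1, the mannose receptor, was at -0.16 in HT and -0.25 in HM mice. In HM against HT mice 5 of 7 were lower, with a median of -0.08. Their part in the values of Csf1r, Aif1, Trem2 and the C1q genes was not tested. All 5 erythrocyte genes had lower means in HT than in WT mice at an unadjusted p under 0.05, against 6.42% of all genes, and none passed the adjustment (limma, adjusted p = 0.726 to 0.765). Their sums were 7780 to 21984 normalized counts in the WT mice, 6495 to 8717 in the HT mice and 5859 to 29022 in HM mice. Their part in the values of the 9 genes was not tested. Medians were 0.05, 0.05 and -0.0030 for 7 astrocyte markers and 0.05, 0.06 and 0.01 for 8 neuron markers in the 3 comparisons. They were 0.12, 0.12 and 0.03 for 8 endothelial, -0.04, -0.02 and 0.04 for 7 mature oligodendrocyte and 0.02, 0.03 and 0.02 for 5 oligodendrocyte precursor markers. In HM against WT mice 7 astrocyte, 8 neuron, 7 endothelial, 2 mature oligodendrocyte and 5 precursor markers were higher, none past the adjustment (limma, BH).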

How the data were processed

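Whole-brain RNA of 12 mice was sequenced. The authors ran Salmon 1.1.0 on GRCm38 transcripts, with GC bias correction, took gene totals through tximport and divided these by DESeq2 1.30.1 size factors (versions from the submitters' processing notes). The deposited signal is this normalized count, for 19775 genes in each mouse, and the annotation release is not given in the sources used here. Between 9.48% (HT replicate 2) and 42.7% (HM replicate 1) of low values lay within 0.02 reads of a whole number. Reads were therefore not recovered and no count model was fitted. Symbols came from GENCODE M21, which held 19758 of the identifiers.

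Genotypes were compared in pairs by limma 3.58.1 (R 4.3.3), whose variance prior was allowed a trend with expression. Values entered as log2(normalized count + 1), and a gene needed an average of 10 or more over the 8 mice. P-values were adjusted by Benjamini-Hochberg (BH) over all genes tested, with a threshold of 0.05. A log2 fold change on this scale understates that of low genes. The procedure was tested on simulated data. Exact permutation tests and correlations used Python 3.11.15 with scipy 1.17.1. Genes named are the 9, the gene of each list with the smallest p in each comparison, Slc6a20a, and the 8 genes most correlated with the mean of the 9 among those with a mean of at least 100. Genes picked by their p tend to show little overlap of the genotypes. Csf1, Cx3cl1, Gpr34, Ikzf1, Tyrobp, Apoe, Itgam, Itgax, Mrc1, Lyve1 and Bst2 were picked with their values in view. Cd79a, the lymphocyte marker in the table, and Il1b are named outside these rules. Values of 1 gene of the homeostatic list are not reported here. The members and lists were chosen with earlier results of these data known. Alternatives were a pseudocount of 0.1, no filter, one fit of 12 mice, blocks for the replicate number or the start of the animal number, quantile normalization, another variance prior, a length correction by loess and leaving out each mouse.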

Additional observations from a re-analysis of the deposited data

Results flagged for a closer look

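In the WT mice, C1qb had 1 value apart from the others, replicate 2 with 1096.9 normalized counts against 1218.9 to 1236.8 in the other WT mice. Its gap to the nearest of them was 0.872 of the range, above Dixon's critical value for 4 mice. This was 1 of 27 groups of 4 mice examined, and chance marks about 1 in 20 groups.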

How the results depend on the processing

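None of the 9 genes had an adjusted p under 0.05 in any comparison under any alternative run (limma, BH), and the number at an unadjusted p under 0.05 ran from 0 to 3 over all of them. In HT against WT mice that number was 0 with all mice, 3 without WT replicate 4, 2 without WT replicate 2 and 1 without HT replicate 2 or 3. In HM against WT mice it was 2 with all mice, 3 without WT replicate 2, 2 without HM replicate 3 and 1 without any other mouse, and in HM against HT mice it was 3 with all mice and 2 without HT or HM replicate 1 or 2. With a block for the start of the animal number, the median log2 fold change was 0.061 in HM against WT and -0.063 in HM against HT mice. With that block Cx3cr1 was at 0.069, P2ry12 at 0.13, Csf1r at 0.25, C1qa at 0.027 and C1qb at 0.061 in HM against WT, and C1qa at 0.0078 in HM against HT mice. By construction these values rest on fewer mice. With the length correction, Aif1 was at 0.036 in HT against WT, C1qb at 0.011 in HM against WT and C1qa at 0.00034 in HM against HT mice. Other causes were not tested.

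Leaving out 1 mouse at a time gave medians of -0.05 to -0.01 (HT against WT), -0.13 to -0.03 (HM against WT) and -0.17 to -0.058 (HM against HT). The signs that turned were those of Aif1 (-0.12 to 0.071) and Trem2 (-0.12 to 0.0074) in HT against WT, of Cx3cr1 (-0.14 to 0.030), P2ry12 (-0.12 to 0.061) and Csf1r (-0.11 to 0.045) in HM against WT, and of C1qa (-0.058 to 0.059) in HM against HT mice. Cx3cr1 in HM against HT mice stayed between -0.22 and -0.15, and Tmem119 between -0.19 and -0.12. In HT against WT mice C1qa ran from -0.19 to -0.08, C1qb from -0.18 to -0.05 and C1qc from -0.16 to -0.07. In HM against WT mice C1qa ran from -0.19 to -0.07, C1qb from -0.08 to -0.0027 and C1qc from -0.21 to -0.12.

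No label says that replicate numbers pair the mice. Deviations of same-numbered mice correlated at -0.07 to 0.09 in HT against WT, -0.01 to 0.08 in HM against WT and -0.05 to 0.02 in HM against HT mice. Those of differently numbered mice correlated at -0.09 to 0.12, -0.10 to 0.05 and -0.07 to 0.08. With 4 same-numbered pairs in each comparison, these values cannot decide whether the mice were paired. With the replicate block 0 genes were called, medians were -0.03, -0.07 and -0.13, and 1, 2 and 2 of the 9 genes had an unadjusted p under 0.05. Over pairs of genes, the median r was 0.28, 0.20 with genotype means kept and 0.06 without the 2 mice most distant in the first gene of the pair.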

Other observations

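Of 19 inflammatory and interferon-induced genes, 15 were in the table and 14 were tested, with none past the adjustment (limma, BH). In HM mice 11 of 14 were higher than in WT and 12 of 14 higher than in HT mice, with median log2 fold changes of 0.14 and 0.12, and in HT against WT mice 9 of 14 were higher, with a median of 0.04. In this order of comparisons there were 1, 2 and 1 at an unadjusted p under 0.05, against 6.99%, 3.74% and 6.42% of all genes. Of all genes, 50.2%, 50.5% and 50% were lower. Ifitm3, an antiviral membrane protein, had 173.6, 146.3, 163.6 and 159.8 normalized counts in HT and 192.0, 264.5, 210.5 and 177.9 in HM mice. Its HM mice all lay above every HT mouse, where 2.38% of all genes did not overlap. Its log2 fold change was 0.38 (SE 0.12, limma, unadjusted p = 0.0093, adjusted p = 0.9998). Bst2, also antiviral, was at 0.45 in the same comparison (SE 0.18, limma, adjusted p = 0.9998). Irf7, a transcription factor of the interferon response, was at 0.44 in HM against WT mice (SE 0.16, limma, adjusted p = 0.664), and Cd14, a co-receptor for lipopolysaccharide, at -0.42 in HT against WT mice (SE 0.18, limma, adjusted p = 0.770). Il1b had 2.15 to 12.9 normalized counts in every mouse, too few for a test.

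The 8 genes outside the 9 whose deviations from the genotype mean correlated most with the mean deviation of the 9 over 12 mice were Serpind1 (r = 0.921), Il4ra (0.914), Ercc8 (0.902), AC122117.2 (0.891), Gja1 (0.879), Sorbs3 (0.877), Pnck (0.875) and Padi2 (0.875). Gja1 encodes the main astrocytic gap junction protein and Il4ra an interleukin receptor subunit. They were picked from 13118 genes, with a median r of -0.03 and a 90th percentile of 0.402, and the 12 mice share depth and handling with the 9 genes.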
